A study of Mus musculus with 6 samples.

Results

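The genes described here carry glucose into the cell, split it to pyruvate and direct the pyruvate to lactate or to the mitochondria. They were taken from a list of 36 mouse genes, and a gene was included when a probe of the array carried its symbol. Of the 36, 34 had a probe, out of 30854 symbols on the array, and they held 60 of its 45281 probes. The array writes symbols in capitals (SLC2A1, PFKL, ENO3, PDK3), and the usual mouse spelling is used here. No probe carried the symbols Hk2 or Ldhb. Of the 34 genes, 18 had 1 probe and 16 had several, with at most 4.

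The cells were mGLUTag cells, an immortalized male mouse line that models the intestinal L-cell, the endocrine cell of the gut that releases the hormone GLP-1 (glucagon-like peptide-1). The labels name no genetic change. The cells of both groups had been kept in low serum, exposed to forskolin, which raises cAMP and sets the cells' clocks to the same phase, and returned to growth medium with high glucose. RNA was collected at 4 h (n = 3) and at 16 h (n = 3) after synchronization. These times were picked by the study for the high and low points of the mRNA of Arntl, which encodes the clock transcription factor BMAL1. Each sample was measured on 1 array of an Illumina mouse BeadChip, and the labels do not say which arrays shared a slide. No unsynchronized cells are among the 6 samples, so each time point has only the other as its reference. The labels do not say that samples were grown as separate cultures, and p-values then measure only the spread between these samples, which may be technical. The samples are bulk RNA, in which fewer cells carrying a transcript and less of it per cell cannot be told apart.

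Glucose crosses the plasma membrane through facilitative carriers of the GLUT (Slc2a) family or together with sodium through SGLT1 (Slc5a1), which in the intestinal L-cell is known to couple glucose in the gut lumen to GLP-1 release. Hexokinases trap it as glucose 6-phosphate, phosphofructokinase commits it to glycolysis, and the lower enzymes yield ATP and pyruvate. Lactate dehydrogenase turns pyruvate into lactate, pyruvate dehydrogenase turns it into acetyl-CoA and pyruvate carboxylase turns it into oxaloacetate. Most steps have several isoforms encoded by different genes, and tissues differ in which of them they express.

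To find out which isoforms were measurable, each probe was set against a noise limit, the 99th percentile of the below-zero values of its array with their sign turned, which lay between 9.2 and 14 intensity units. A gene was taken as measured when its brightest probe exceeded the limit on 3 or more of the 6 arrays. By this rule 26 of the 34 genes (76.5%) were measured, against 12342 of 30854 symbols (40.0%) on the whole array, and 24 of the 26 exceeded the limit on all 6 arrays. The other two were Pcx, above it on 4 arrays, and Slc16a3, above it on 3. The 8 genes that were not measured were Slc2a2, Pfkfb1, Pfkfb3, Pklr, Slc16a1, Pdk2, Pdk4 and Pck2, and all but Pfkfb3 were above the limit on no array. Signal of different probes depends on the probe as well as on the transcript, so isoforms are described here as measured or not and are not ranked by brightness, and a gene under the limit may still be expressed.

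**Figure D1:**
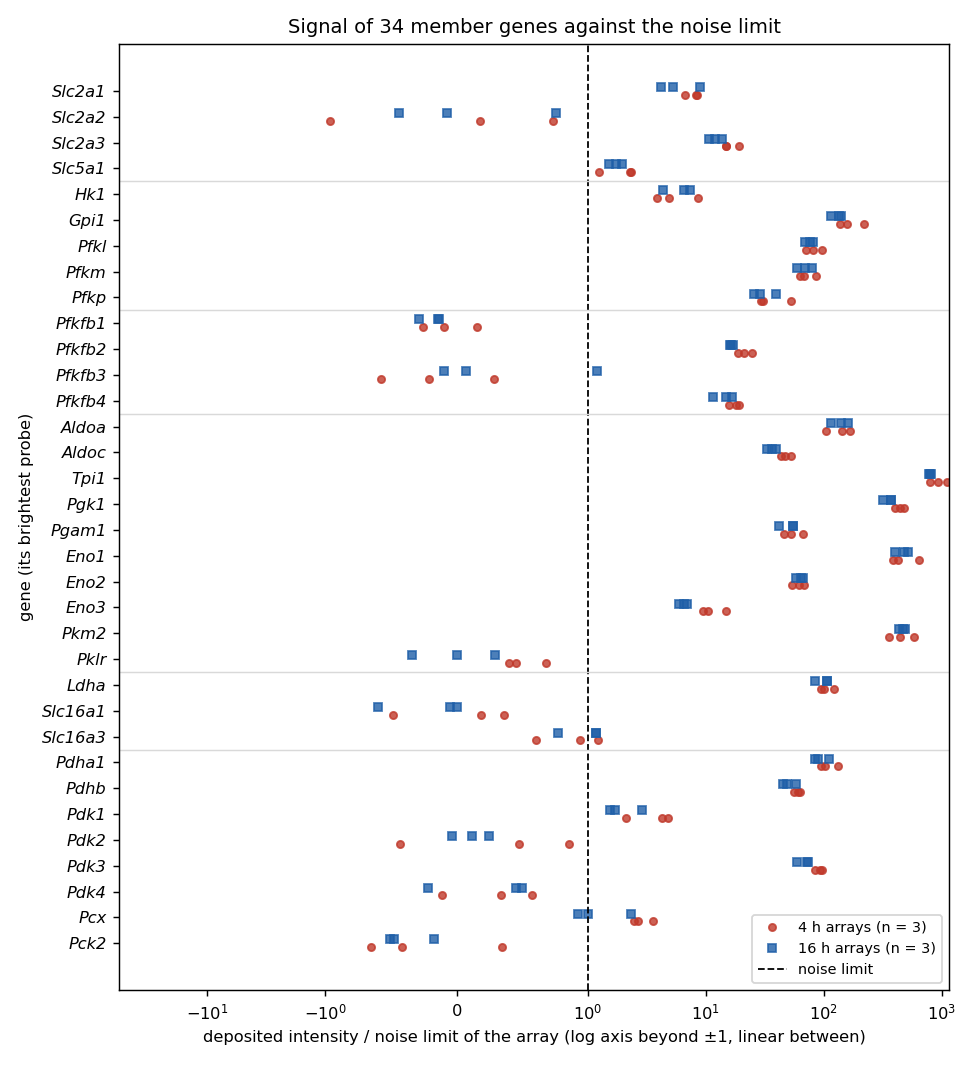
Deposited intensity of the brightest probe of each of the 34 genes, divided by the noise limit of its array (horizontal axis, logarithmic beyond ±1 and linear between), for the 3 arrays at 4 h (red circles) and the 3 at 16 h (blue squares). The dashed line is the noise limit: 24 genes lie to its right on all 6 arrays, Pcx and Slc16a3 straddle it, and the other 8 lie to its left on 5 or 6 arrays.

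The identity of the cells was checked with a list of 14 L-cell and enteroendocrine markers, of which 11 were above the limit on 3 or more arrays, Gcg (the GLP-1 precursor) among them on all 6. Pyy, a hormone of the mature L-cell, was above it on no array, and Pcsk1, the convertase that releases GLP-1 from its precursor, was above it on 1. The beta-cell markers Ins1, Ins2 and Iapp, and the listed markers of immune cells, enterocytes, goblet cells, hepatocytes and muscle were above it on no array, while 1 of 3 fibroblast markers, Col1a1, was above it on all 6, with deposited intensities that averaged 27.8 ± 12.8 (SD, n = 3) at 4 h against 20.9 ± 1.74 at 16 h. The red cell marker Hbb-b1 was above it on 2 arrays. Arntl, the gene by which the time points were chosen, had log2 intensities of 7.36, 7.34 and 7.43 at 4 h and of 6.79, 6.92 and 6.87 at 16 h. The difference of 0.52 had an adjusted p of 0.141 by limma.

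Before normalization the arrays differed in brightness. Averaged over all probes, an array at 4 h had a deposited intensity of 322 ± 31.3 (SD, n = 3), against 236 ± 17.0 for an array at 16 h. The ratio was 1.37, with p = 0.1 by a two-sided exact permutation test, which cannot give less with 3 arrays on each side. All 26 measured genes shared this, with a higher mean deposited intensity at 4 h and log2 ratios from 0.17 to 1.41 (median 0.58, against a median of 0.54 over the 10869 genes above the limit on all arrays). Values below are therefore on the log2 scale after quantile normalization, on which a gene is measured relative to the other probes of its array, so that a shift common to most transcripts is removed. Where arrays were instead scaled to their medians, or not scaled, the median of the 10869 genes itself moved to 0.31 or 0.40. Of the 11 measured genes described below as lower at 4 h, 10 then had a positive difference under median scaling and 11 without scaling.

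None of the 26 measured genes passed an adjusted p of 0.05 by limma. In the same fit 2 of the 45281 probes were called higher at 4 h (0.00442%) and 2 lower (0.00442%). These counts depend on the scaling: with arrays scaled to their medians 832 probes were called higher and 0 lower, with 4 members among the higher, and without scaling 2308 and 0, with 6 members. At an unadjusted p under 0.05, 4 of the 26 passed, all of them higher at 4 h (background 10.9% of the 12342 measured genes, 5.73% higher and 5.22% lower). These were Eno3, Pdk3, Pcx and Aldoc, and they were also the only 4 of the 26 whose values did not overlap between the time points (background 12.2%, with 6.48% higher and 5.71% lower). Pcx counted as measured through its 4 h arrays, since it exceeded the limit on 3 arrays at 4 h and on 1 at 16 h, so its place among the 4 is no support for a difference. Of all 26, 15 were higher and 11 lower at 4 h at any size, where 50.3% of measured genes had a difference above 0. The number of members with an unadjusted p under 0.05 moved most with the scaling, to 15 under median scaling and 18 without scaling. It was 8 without 4 h replicate 1, 6 without 4 h replicate 3 and 2 without 16 h replicate 3. It was also 2 with an offset of 16, with the noise filter on all probes or with trend and robust variance.

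After quantile normalization the differences were small as well as uncertain. They ran from -0.20 (Eno2) to 0.36 (Eno3) on the log2 scale, with a median of 0.048, against 0.00088 over all measured genes, and a median size of 0.13 against 0.092. The median of the members was 0.0015 without 16 h replicate 3, 0.0034 without 16 h replicate 2, 0.076 without 16 h replicate 1 and 0.082 without 4 h replicate 2. It was 0.35 under median scaling and 0.44 without scaling, where all genes above the limit on 6 arrays had medians of 0.31 and 0.40. In the quantile-normalized fit of all 6 arrays the 95% confidence intervals of 24 of the 26 lay wholly between -0.5 and 0.5. The intervals of Eno3 and Gpi1 reached 0.58 and 0.52. Quantile normalization and the offset of the background correction both act on these sizes, and dim genes are shrunk most by the offset. The difference of Pcx was 0.24 with the offset of 50, 0.41 with an offset of 16 and 0.9995 without background correction, so the intervals do not bound the change of dim genes.

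**Figure D2:**
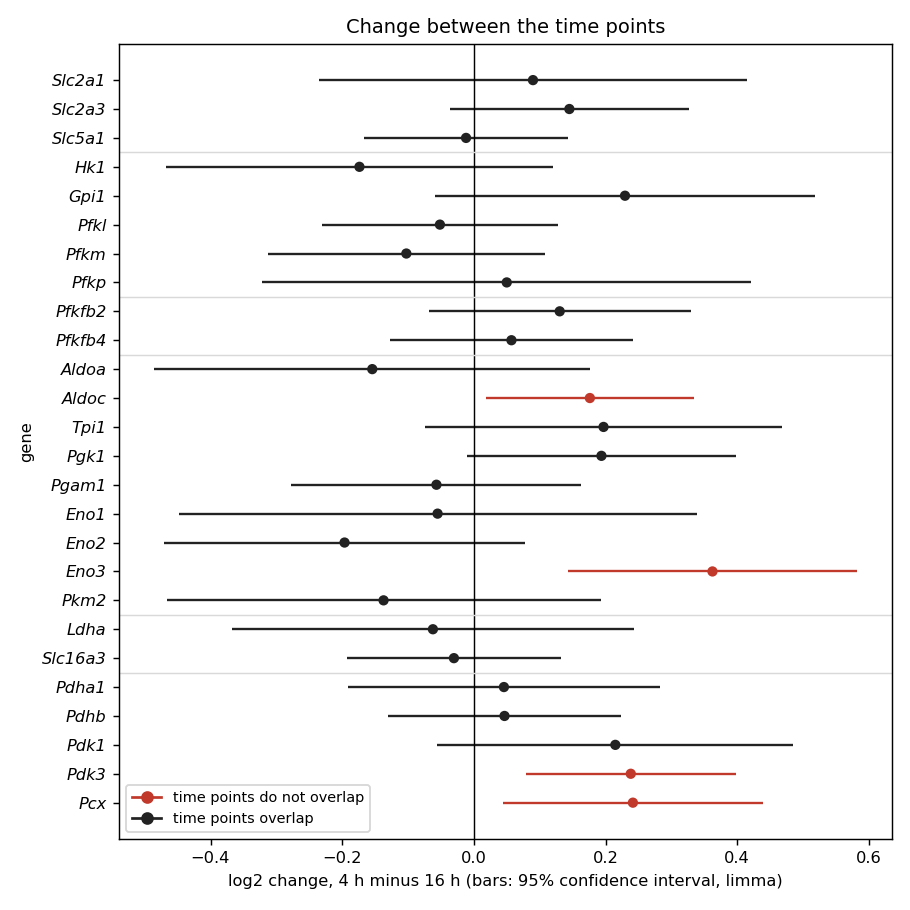
Log2 change of each of the 26 measured genes, 4 h minus 16 h (points), with its 95% confidence interval from limma (bars, n = 3 against 3). Genes whose values do not overlap between the time points are red: these are Aldoc, Eno3, Pdk3 and Pcx, with changes from 0.18 to 0.36, and no gene is called after adjustment.

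Promoters of the members were searched for 2 short motifs because BMAL1 binds the E-box CACGTG and the hypoxia factors bind ACGTG or GCGTG. Windows of 300 bases, 250 before and 50 after an annotated start site, were taken from RefSeq on GRCm38.p6, with 54 windows for 33 of the 34 genes. Both strands were searched, and every E-box also counts as a hypoxia core. The E-box was present in 8 of the 54 windows (14.8%), against 7.15% of all 32851 windows, and a hypoxia core in 38 (70.4%), against 43.8%. A match of letters is a description and not a bound site.

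The windows of Eno3 and Pdk3 and one of Pcx are shown as 3 of the 4 genes whose time points did not overlap, and one of Ldha because it holds CACGTG at 2 positions. Pcx and Ldha each had a second window, without CACGTG, which is not shown. Capitals mark every match to either motif on either strand. The Eno3 window is chr11:70656926-70657225 (plus strand), that of Pdk3 chrX:93832101-93832400 (minus strand), the one of Pcx chr19:4510222-4510521 (plus strand) and the one of Ldha chr7:46845554-46845853 (plus strand), each written 5′ to 3′ in the direction of the gene.
Eno3: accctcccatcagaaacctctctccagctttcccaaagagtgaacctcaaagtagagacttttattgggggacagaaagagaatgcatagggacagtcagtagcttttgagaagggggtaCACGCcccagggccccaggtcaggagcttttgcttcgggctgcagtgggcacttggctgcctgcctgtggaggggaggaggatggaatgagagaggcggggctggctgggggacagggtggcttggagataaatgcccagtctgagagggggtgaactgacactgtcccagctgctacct
Pdk3: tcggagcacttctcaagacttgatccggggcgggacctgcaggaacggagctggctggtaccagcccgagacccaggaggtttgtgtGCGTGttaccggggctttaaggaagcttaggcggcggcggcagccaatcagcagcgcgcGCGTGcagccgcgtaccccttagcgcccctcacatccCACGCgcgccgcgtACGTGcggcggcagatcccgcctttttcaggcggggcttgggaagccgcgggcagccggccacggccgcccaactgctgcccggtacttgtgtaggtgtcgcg
Pcx: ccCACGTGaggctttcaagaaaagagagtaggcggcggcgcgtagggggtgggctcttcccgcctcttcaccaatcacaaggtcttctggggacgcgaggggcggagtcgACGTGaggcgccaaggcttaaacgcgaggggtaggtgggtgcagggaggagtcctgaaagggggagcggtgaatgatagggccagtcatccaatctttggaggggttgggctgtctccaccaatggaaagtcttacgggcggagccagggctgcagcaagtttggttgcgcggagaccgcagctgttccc
Ldha: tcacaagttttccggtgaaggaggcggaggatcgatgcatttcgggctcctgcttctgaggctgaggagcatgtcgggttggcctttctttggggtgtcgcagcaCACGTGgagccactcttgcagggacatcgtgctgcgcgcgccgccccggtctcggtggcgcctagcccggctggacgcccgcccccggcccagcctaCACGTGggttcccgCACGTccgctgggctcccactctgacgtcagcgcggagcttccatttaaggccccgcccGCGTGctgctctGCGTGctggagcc

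In these windows CACGTG began 248 bases before the start of Pcx and 145 and 48 bases before that of Ldha. Eno3 held no CACGTG and 1 hypoxia core, and Pdk3 held no CACGTG and 4 hypoxia cores. The 5 measured genes with CACGTG in a window were Slc5a1, Pfkm, Ldha, Pfkfb2 and Pcx. Their differences ran from -0.10 to 0.24, 2 of the 5 had a higher mean at 4 h (all 5 under median scaling), and their median was -0.01, against 0.048 for the 20 measured genes with a window and no CACGTG. For the hypoxia core the median was 0.046 over 22 genes with it and 0.20 over the 3 without it. These 3 differed in direction: Gpi1 was at 0.23, Tpi1 at 0.20 and Eno2 at -0.20.

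Glucose entry was represented by 3 measured transporters of 4. Slc2a1 (GLUT1, the carrier of basal uptake in most cells) had log2 intensities of 7.003, 7.32 and 7.14 at 4 h and of 6.91, 7.41 and 6.88 at 16 h. Slc2a3 (GLUT3, a high-affinity carrier known from neurons) had 7.74, 7.86 and 7.92 at 4 h against 7.62, 7.81 and 7.66 at 16 h. The time points overlapped for both: Slc2a1 spread more within 16 h than between the means, and for Slc2a3 the second 16 h array lay above the first 4 h array. The differences were 0.09 ± 0.14 (SE) for Slc2a1 and 0.15 ± 0.080 for Slc2a3, with adjusted p-values of 0.979 and 0.924 by limma.

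Slc5a1 (SGLT1) was measured on all 6 arrays, close above the limit. Its deposited intensities were 32.6, 14.4 and 28 at 4 h against 19.2, 18.3 and 13.8 at 16 h. On the normalized scale it had the narrowest range of the 26 genes, from 6.28 to 6.41, where the offset narrows the range of dim genes. It had a difference of -0.01 ± 0.068 (SE), which became 0.096 under median scaling and 0.19 without scaling. Slc2a2 (GLUT2), the low-affinity carrier of liver, beta-cells and the basolateral side of the gut, was represented by 4 probes, and none of the 4 exceeded the limit on any array. Of 10 further genes of the Slc2a and Slc5a families, 4 were measured. These were Slc2a5, Slc2a6, Slc2a8 and Slc2a13, the last a carrier of myo-inositol. The insulin-responsive Slc2a4 (GLUT4) was not measured, with deposited intensities between -2.3 and 6.5.

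The steps from glucose to fructose 1,6-bisphosphate were represented by 5 measured genes, with Hk2 having no probe. Hk1, the hexokinase of most tissues, had log2 intensities of 6.64, 6.91 and 7.16 at 4 h and of 7.17, 7.14 and 6.92 at 16 h. The highest 4 h array lay among the 16 h arrays, and the difference was -0.17 ± 0.13 (SE, adjusted p = 0.953 by limma). Hk3 and Hkdc1, further hexokinases outside the list, were not measured.

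Gpi1 (glucose 6-phosphate isomerase) had log2 intensities of 10.60, 10.80 and 11.14 at 4 h and of 10.63, 10.71 and 10.52 at 16 h. Only the first 4 h array lay among those at 16 h. The difference of 0.23 ± 0.13 (SE) had an adjusted p of 0.924 by limma. It ranged from 0.084 to 0.35 when single arrays were left out.

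All 3 phosphofructokinase genes were measured on all 6 arrays: the liver-type Pfkl, the muscle-type Pfkm and the platelet-type Pfkp. Pfkl lay between 9.71 and 9.95 on the log2 scale and differed by -0.05 ± 0.079 (SE). Pfkm had 9.63, 9.58 and 9.78 at 4 h against 9.70, 9.94 and 9.66 at 16 h, a difference of -0.10 ± 0.093. Pfkp was the most variable of the 3, with 8.54, 8.67 and 9.16 at 4 h against 8.99, 8.62 and 8.61 at 16 h. Its difference was 0.05 ± 0.16, and it ranged from -0.14 to 0.18 when single arrays were left out. The other measured probes of Pfkm and Pfkp had the sign of the brightest, while the second probe of Pfkl had a difference of 0.12, with the opposite sign.

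The Pfkfb enzymes make and break down fructose 2,6-bisphosphate, the strongest allosteric activator of phosphofructokinase. Of the 4 genes, Pfkfb2 and Pfkfb4 were measured on all 6 arrays. Pfkfb1, the liver form, exceeded the limit on no array, and Pfkfb3, the form induced by growth signals and hypoxia, exceeded it on 1 array, 16 h replicate 2. Pfkfb2 had log2 intensities of 8.33, 8.11 and 8.03 at 4 h and of 7.995, 7.99 and 8.09 at 16 h, so that only the third array of each time point made them overlap (difference 0.13 ± 0.088 SE, adjusted p = 0.949 by limma). This difference ranged from 0.044 to 0.19 when single arrays were left out. Pfkfb4 had nearly the same value on the 4 h arrays, 7.95, 7.92 and 7.91, while the 16 h arrays lay on both sides of them, at 7.85, 8.02 and 7.75.

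From aldolase to pyruvate kinase 9 of 10 genes were measured, and 2 of the 9, Eno3 and Aldoc, did not overlap between the time points (background 12.2%). Aldoa, the aldolase of muscle and of most cells, had log2 intensities of 10.24, 10.67 and 10.76 at 4 h and of 10.68, 10.93 and 10.52 at 16 h. Aldoc, the aldolase of the brain, had 9.04, 9.19 and 9.14 at 4 h against 8.996, 8.91 and 8.93 at 16 h. Every 4 h array of Aldoc was above every 16 h array, narrowly at the nearest pair, whereas Aldoa overlapped and its mean was lower at 4 h. The differences were 0.18 for Aldoc (95% CI 0.02 to 0.33, unadjusted p = 0.0324 and adjusted p = 0.877 by limma) and -0.15 ± 0.15 (SE) for Aldoa. The second Aldoc probe gave no signal above the limit on any array.

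The enzymes of the middle of the pathway followed. Tpi1 (triose phosphate isomerase) had log2 intensities of 13.11, 13.30 and 13.63 at 4 h and of 13.09, 13.19 and 13.17 at 16 h. Pgk1, the first ATP-yielding kinase of glycolysis, had 12.10, 12.35 and 12.18 at 4 h against 12.02, 12.13 and 11.90 at 16 h. In both, 1 array at 4 h lay among those at 16 h and the other two lay above all of them. The difference was 0.20 ± 0.12 (SE) for Tpi1 and 0.19 ± 0.090 for Pgk1, with adjusted p-values of 0.941 and 0.919 by limma. With single arrays left out it ranged from 0.056 to 0.31 for Tpi1 and from 0.13 to 0.25 for Pgk1. The further measured probes of each gene were higher at 4 h too, by 0.03 to 0.16. Pgam1 differed by -0.06, and so did Gapdh, the dehydrogenase between Tpi1 and Pgk1, which is not on the list and lay between 12.97 and 13.50 on all arrays.

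Enolase, which makes phosphoenolpyruvate, is encoded by 3 of the members, and all 3 were measured on all 6 arrays. Eno3, the muscle form, had the largest difference of the 26 genes. Its log2 intensities were 7.30, 7.52 and 7.66 at 4 h against 7.13, 7.07 and 7.21 at 16 h, and its deposited intensities were 132, 121 and 181 against 68.2, 61.8 and 60.0. All 4 h arrays were above all 16 h arrays on both scales. The normalized difference of 0.36 ± 0.097 (SE, 95% CI 0.14 to 0.58) is a 1.29-fold difference, with an unadjusted p of 0.00475 and an adjusted p of 0.587 by limma. It stayed between 0.27 and 0.45 when each array was left out in turn. The highest value over all settings tried was 0.74, and the smallest adjusted p was 0.033 by limma. Median scaling and no scaling were the only settings that called Eno3. Eno3 had 1 probe, and its promoter window held no E-box.

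Eno1, the widespread form, and Eno2, the form of neurons and neuroendocrine cells, had lower means at 4 h than at 16 h. Eno1 had 12.20, 12.02 and 12.77 at 4 h against 12.46, 12.47 and 12.22 at 16 h, with the largest spread within a time point of all members (SD 0.40 at 4 h). Eno2 had 9.63, 9.55 and 9.18 at 4 h against 9.66, 9.52 and 9.76 at 16 h. In the third array at 4 h Eno1 was at its highest and Eno2 at its lowest. The differences, -0.06 ± 0.17 (SE) and -0.20 ± 0.12, had adjusted p-values of 0.989 and 0.942 by limma, and both became positive under median scaling (0.30 and 0.20).

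Of the pyruvate kinase genes, Pkm, which the array lists as Pkm2, was measured. It had log2 intensities of 11.96, 12.24 and 12.61 at 4 h and of 12.34, 12.53 and 12.34 at 16 h (difference -0.14 ± 0.15 SE), and a second measured probe gave -0.08. Pklr, the pyruvate kinase of liver and red cells, had 3 probes and was above the limit on no array with any of them. The probes are not described as specific to the M1 or M2 splice form.

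Of the genes for lactate, Ldha was measured on all 6 arrays. It had log2 intensities of 10.10, 10.44 and 10.02 at 4 h and of 9.997, 10.34 and 10.41 at 16 h, which overlapped almost entirely (difference -0.06 ± 0.13 SE, adjusted p = 0.983 by limma). Its difference became 0.35 under median scaling, 0.43 without scaling and 0.063 with the 18S ribosomal RNA level as a block. The proton-linked carriers that export lactate gave little signal: Slc16a1 (MCT1) was above the limit on no array, and Slc16a3 (MCT4) on 3 of 6 and with 1 of its 3 probes, at deposited intensities between 7.1 and 14.2. Slc16a7 and Slc16a8, further carriers of the family that are not on the list, were above the limit on no array. Bsg (basigin), the chaperone of these carriers, was also dim. It was above the limit on 4 arrays, with deposited intensities between 1.9 and 21.

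Mitochondrial use of pyruvate was represented by 5 measured genes of 8. Their differences ran from 0.05 to 0.24, where 50.3% of all measured genes had a difference above 0, and the 5 include Pcx, which was measured through its 4 h arrays. Pdha1 and Pdhb, subunits of the pyruvate dehydrogenase complex, differed by 0.05 each, with overlapping time points. With the 18S level as a block Pdha1 was at -0.034, and with the mean of its measured probes Pdhb was at -0.037. The pyruvate dehydrogenase kinases phosphorylate and so inhibit that complex. Pdk1 and Pdk3 were measured on all 6 arrays, and Pdk2 and Pdk4, the kinases known from fasting and fat oxidation, were above the limit on none.

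Pdk3 had log2 intensities of 9.95, 10.06 and 9.95 at 4 h and of 9.79, 9.78 and 9.68 at 16 h. The arrays at each time point lay close together and did not overlap with those of the other. The difference of 0.24 (95% CI 0.08 to 0.40) is a 1.18-fold difference, with an unadjusted p of 0.00818 and an adjusted p of 0.678 by limma, and it lay between 0.20 and 0.26 when each array was left out. Over all settings tried it reached 0.74, and its smallest adjusted p was 0.033 by limma. Pdk3 was called under median scaling and without scaling only. Pdk1 had 6.37, 6.82 and 6.76 at 4 h against 6.56, 6.34 and 6.40 at 16 h, a difference of 0.21 ± 0.12 (SE), with the first 4 h array among the lowest of all 6.

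Pcx (pyruvate carboxylase), which feeds oxaloacetate to the citric acid cycle, was dim. Its deposited intensities were 50.2, 28.6 and 32.5 at 4 h against 22.8, 10.5 and 8.5 at 16 h, and the second of these 16 h values lay at the limit of its array and the third under it. On the log2 scale it had 6.60, 6.53 and 6.47 at 4 h against 6.46, 6.21 and 6.20 at 16 h. All 4 h values were above all 16 h values, though the closest pair was 6.47 and 6.46. The difference was 0.24 ± 0.087 (SE), with an unadjusted p of 0.0217 and an adjusted p of 0.823 by limma. A second probe of Pcx was above the limit on no array. Pck2, the mitochondrial enzyme that makes phosphoenolpyruvate from oxaloacetate, was above it on no array.

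**Figure D3:**
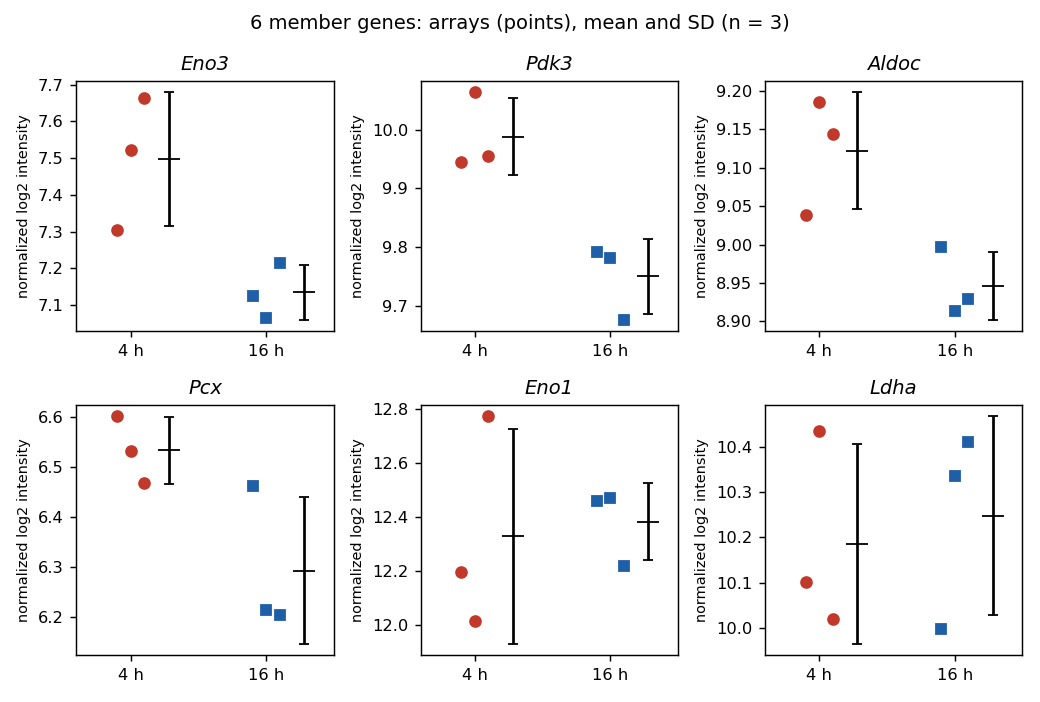
Normalized log2 intensity on each array of 6 genes at 4 h (red circles) and 16 h (blue squares), with the mean and SD of each time point beside the points (n = 3). Vertical axes differ between panels and do not start at 0. Eno3, Pdk3, Aldoc and Pcx do not overlap between the time points; Eno1 and Ldha, shown for contrast, do.

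The members did not move evenly over the arrays. Within 4 h, replicate 3 held the highest value of 14 of the 26 genes and replicate 1 the lowest of 14. Within 16 h, replicate 3 held the lowest of 16. The median deviation of the 26 genes from their time point mean was -0.09 on 4 h replicate 1 and 0.09 on 4 h replicate 3, and for all measured genes it was -0.012 and 0.0017 on these arrays. The arrays also differed in their 18S ribosomal RNA probes, whose mean log2 intensity was 8.48, 6.90 and 10.55 at 4 h against 9.22, 7.69 and 7.01 at 16 h. Their part in the members' values was not tested beyond a fit with the 18S level as a block and the values within each level. Each level held 1 array of one time point, 16 h replicate 1 among those with high 18S and 4 h replicate 2 among those with low 18S, so each of these differences rests on that array. Within the 3 arrays with high 18S the difference was 0.36 for Eno3, 0.16 for Pdk3, 0.09 for Aldoc and 0.07 for Pcx, and within the 3 with low 18S it was 0.38, 0.34, 0.26 and 0.32. The median of the 26 was 0.021 within the first and 0.066 within the second.

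**Figure D4:**
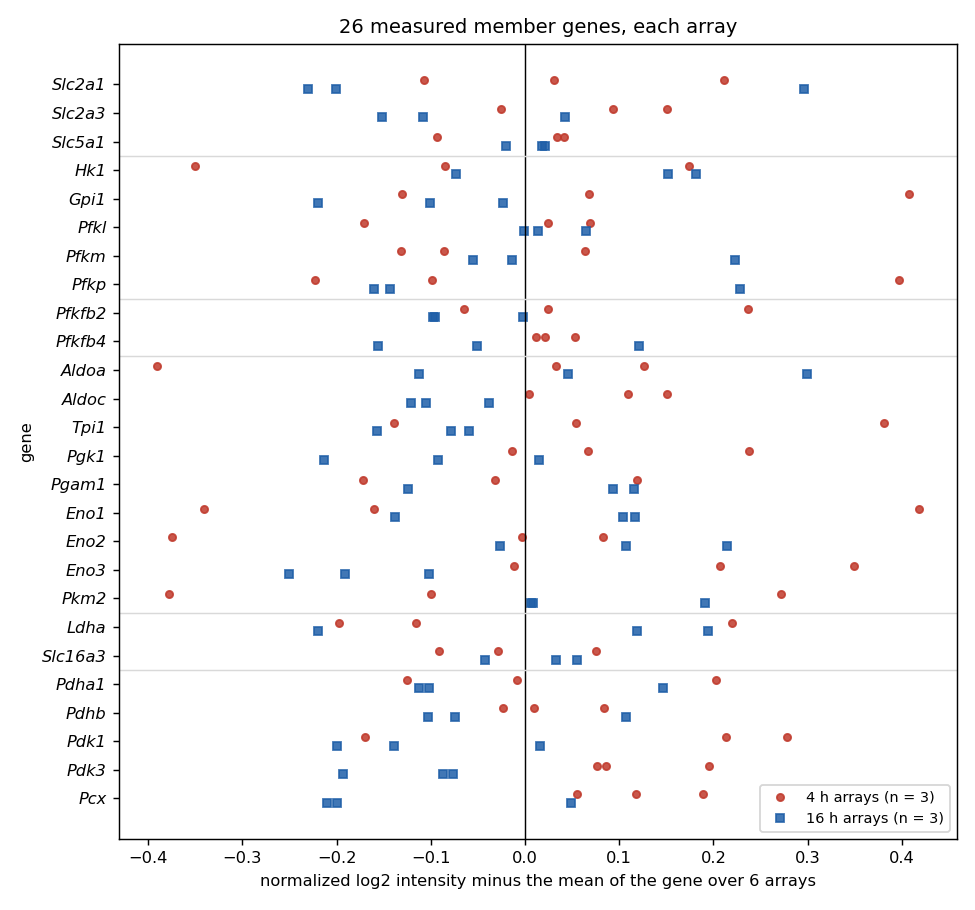
Normalized log2 intensity of each measured gene on each array minus the mean of that gene over the 6 arrays, for 4 h (red circles) and 16 h (blue squares). The groups separate for Aldoc, Eno3, Pdk3 and Pcx; for most other genes the spread within a time point is as wide as the distance between the time points, as for Eno1, Pfkp and Aldoa.

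Genes of glucose metabolism outside the list were described with a further list of 94, of which 85 had a probe and 52 were measured. None of the 52 was called after adjustment. An unadjusted p under 0.05 by limma was obtained for 8 of the 52 (background 10.9%), 2 higher and 6 lower at 4 h (background 5.73% and 5.22%). The same 8 did not overlap between the time points (background 12.2%, with 6.48% higher and 5.71% lower). The median of the 52 was -0.0066.

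Of the 6 lower genes, 4 came from the 14 measured genes of glycogen and the hexose side branches (background 5.22% lower). Gnpda1, which returns glucosamine 6-phosphate to fructose 6-phosphate, had log2 intensities of 7.54, 7.49 and 7.45 at 4 h and of 8.03, 8.02 and 7.90 at 16 h (difference -0.49 ± 0.068 SE, adjusted p = 0.15 by limma). Sord, which makes fructose from sorbitol, had 8.64, 9.02 and 8.98 at 4 h against 9.25, 9.53 and 9.55 at 16 h, a difference of -0.56 ± 0.12 (adjusted p = 0.371 by limma). Slc2a6 (GLUT6, a carrier of internal membranes) had 8.76, 8.83 and 8.80 at 4 h against 9.15, 9.12 and 9.15 at 16 h. The SD of Slc2a6 was 0.04 at 4 h and 0.02 at 16 h, and its difference of -0.34 ± 0.063 (adjusted p = 0.247 by limma) became 0.056 under median scaling. The remaining 3, named after their values had been seen, were G6pc2 (-0.30), a glucose 6-phosphatase of islets, Galt (-0.28), of galactose use, and Akr1b3 (-0.24), the aldose reductase that makes sorbitol from glucose. Galt and Akr1b3 were at 0.095 and 0.17 under median scaling, and G6pc2 was at -0.073 under it and at 0.015 without scaling.

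The 2 higher genes were Mdh1, the cytosolic malate dehydrogenase, with a difference of 0.30 ± 0.10 (SE, adjusted p = 0.776 by limma), and Arrdc4, an arrestin-domain gene that rises with glucose, with 0.22 ± 0.066 (adjusted p = 0.685 by limma). Slc2a13, the carrier of myo-inositol, came next at 0.24 ± 0.11, with overlapping time points. Txnip, which like Arrdc4 is induced by glucose through the factor encoded by Mlxipl, had a lower mean at 4 h (-0.16), and Mlxipl itself differed by 0.03. Before normalization the direction of Txnip was the opposite, with deposited intensities averaging 839 at 4 h against 652 at 16 h. Hif1a, Arnt and Vhl of the hypoxia response were measured, and Myc was not.

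**Figure D5:**
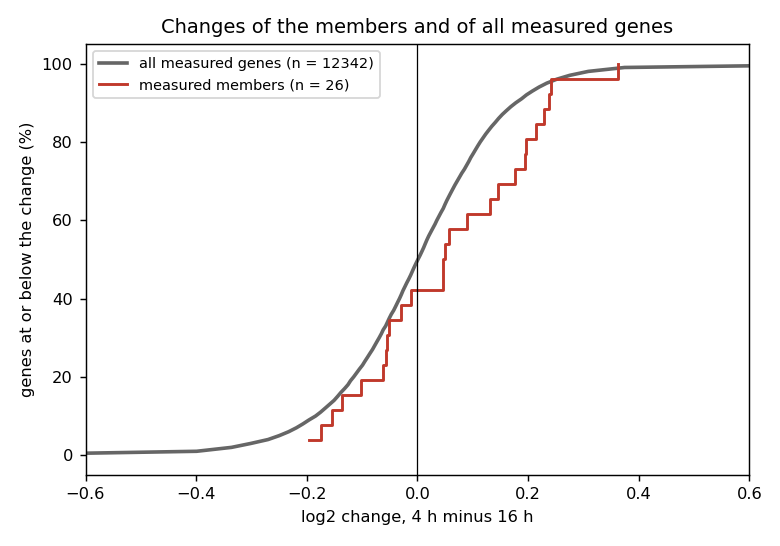
Cumulative share of genes (vertical axis, %) at or below a log2 change, 4 h minus 16 h (horizontal axis), for the 26 measured members (red steps) and for all 12342 measured genes (grey line). The members run from -0.20 to 0.36 with a median of 0.048, and the line for all genes crosses 0 near its middle.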

How the data were processed

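RNA of synchronized mGLUTag cells was measured on Illumina mouse WG-6 V2 BeadChips, 3 arrays at 4 h and 3 at 16 h. The authors deposited linear intensities, 1 for each probe on each array, from which background had been subtracted and which were not normalized between arrays. On each array 31.2% to 34.0% of them lay below 0. Detection p-values, slides and the scanner's settings are not given in the sources used here. Members and lists were chosen with earlier results of these data known. Background was corrected again by normexp (offset 50) and the arrays were quantile normalized on the log2 scale. All 45281 probes were fitted with limma 3.58.1 in R 4.3.3 (lmFit, eBayes, two-sided, Benjamini-Hochberg adjustment over all probes, threshold 0.05). The probe with the highest mean log2 intensity stood for a gene, and genes above the noise limit on fewer than 3 arrays were given no change. Values in every array are given for members with an unadjusted p under 0.05 or no overlap and for families of isoforms; of other pathway genes, Gapdh, Slc2a4 and the 3 with the smallest p in each direction were named by rule, and all further ones after their values had been seen. Some genes that this rule and the marker list select are not reported here. The labels do not say whether equal replicate numbers pair the samples, and the main fit was unpaired. The alternatives were other background corrections, normalizations, filters and variance models, blocks, the mean of probes and leaving out each array. Arrays carry no counts, so their number limits the precision. Figures were drawn with matplotlib 3.10.9 in Python 3.11.15.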

Additional observations from a re-analysis of the deposited data

How the results depend on the processing

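The absence of called members held under all settings tried except median scaling, which called 4 (Aldoc, Pgk1, Eno3 and Pdk3) as higher at 4 h, and no between-array normalization, which called 6 (Slc2a3 and Tpi1 in addition); no setting called one lower. These 2 settings also called 2 and 10 pathway genes outside the list as higher, and moved the median of the members from 0.048 to 0.35 and 0.44 while that of all genes above the limit on 6 arrays moved to 0.31 and 0.40. Over all probes, where 2 were called higher and 2 lower, the counts were 19 and 10 without background correction, 832 and 0 with median scaling, 2308 and 0 without normalization, 0 and 2 with cyclic loess and 1 and 0 with trend and robust variance. They were 0 and 0 with an offset of 16, the noise filter, the replicate block, the 18S block or any array left out (range 0 to 0 in each direction), with 2480 probes at an unadjusted p under 0.05 by limma under the replicate block and 1844 to 3209 without an array. Same-numbered samples had deviations correlated at 0.25, 0.12 and -0.47 over 12342 genes, so the replicate number shows no pairing, and the block left 0 members called. Leaving out an array gave medians of the members from 0.0015 to 0.082.

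Of 442 values of single members under 17 other settings, 389 kept their direction and side of the threshold, 43 changed sign and 10 passed the threshold; 10 members, among them Eno3, Pdk3, Aldoc and Pcx, never changed sign. Under median scaling and no normalization the values that changed sign were 0.096 and 0.19 for Slc5a1, 0.067 and 0.16 for Hk1, 0.36 and 0.45 for Pfkl, 0.30 and 0.39 for Pfkm, 0.24 and 0.33 for Aldoa, 0.35 and 0.44 for Pgam1, 0.30 and 0.39 for Eno1, 0.20 and 0.29 for Eno2, 0.22 and 0.31 for Pkm2, 0.35 and 0.43 for Ldha, 0.26 and 0.35 for Gapdh, 0.056 and 0.15 for Slc2a6, 0.095 and 0.18 for Galt and 0.17 and 0.26 for Akr1b3. Without normalization only, Slc16a3 was at 0.087 and G6pc2 at 0.015. With the mean of measured probes Pfkl was at 0.033 and Pdhb at -0.037, and with the 18S block Pfkp was at -0.044, Ldha at 0.063 and Pdha1 at -0.034. With single arrays left out, sign changes occurred for Slc2a1 (-0.0032 to 0.26), Slc5a1 (-0.034 to 0.032), Pfkl (-0.099 to 0.021), Pfkp (-0.14 to 0.18), Aldoa (-0.26 to 0.00068), Pgam1 (-0.13 to 0.015), Eno1 (-0.28 to 0.10), Pkm2 (-0.31 to 0.015), Ldha (-0.19 to 0.022), Slc16a3 (-0.076 to 0.0076), Pdha1 (-0.044 to 0.13), Pfkfb4 (-0.0077 to 0.13) and Gapdh (-0.19 to 0.068). The number of measured members was 24 to 26 under every rule tried, and the brightness ratio 1.3 to 1.43. The signal over background limits the dim genes: Slc5a1, Slc16a3, Pdk1 and Pcx lay within a few multiples of the noise limit. The cause of the differences between settings was not tested.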
